A study of Mus musculus with 9 samples.

Results

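The 10 genes described here encode matricellular proteins and components of the provisional matrix that fills a fresh wound, namely Tnc, Thbs1, Thbs2, Sparc, Postn, Cthrc1, Fn1, Tgfbi, Fbln2 and Vcan. They were chosen by symbol, and each matched 1 of the 14479 genes in the deposited expression matrix. RNA was sequenced from tissue dissected at the ventricular apex of neonatal mice of the outbred CD-1 strain, operated on at postnatal day 1 and killed at postnatal day 2. The 3 groups were ventricular apical resection with left vagotomy (3 libraries), ventricular apical resection alone (3 libraries) and sham surgery (3 libraries). Resection cuts off the ventricular tip, and vagotomy severs the vagus, which carries parasympathetic fibres to the heart. All vagotomy hearts were also resected, so an effect of vagotomy in an uninjured heart was not measured. The labels do not say whether a library came from 1 pup or from pooled pups, so p-values measure only the spread between these samples, which may be technical.

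Matricellular proteins are secreted into the extracellular matrix but act mainly as signals to cells, through integrins, syndecans and scavenger receptors, rather than as load-bearing fibres. After injury, fibronectin, versican, tenascin-C and thrombospondins form a loose temporary matrix with fibrin and hyaluronan, through which inflammatory cells and fibroblasts move before collagen is laid down. In the developing heart periostin, fibulin-2, versican and fibronectin also belong to the matrix of the cushions and valves.

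Values are FPKM (fragments per kilobase of transcript, scaled to the mapped fragments of the library), a unit normalized for transcript length, so levels of different genes can be set side by side. Read depth is unknown. Library medians ran from 7.52 to 8.29 FPKM, and the correlation across genes between any 2 libraries was 0.746 to 0.951 (genes are not independent replicates). Vagotomy replicate 3 stood apart, with a mean correlation of 0.811 with the other libraries, where the others had 0.861 to 0.886. It was also the lowest of all 9 libraries for Cthrc1 and Postn and the highest for Sparc, so results on these genes are given without it as well. As a check of the tissue, 14 cardiomyocyte markers summed to 23530 to 56380 FPKM in the vagotomy libraries, 12740 to 19680 FPKM in the resection libraries and 18000 to 20550 FPKM in the sham libraries. Among them, the myosin gene Myh6, is listed at 0 in all 3 vagotomy libraries and is marked there in the authors' deposited table as having too many fragments to quantify. Changes are given as differences of log2(FPKM + 1), a scale that shrinks the changes of weakly expressed genes, with 95% intervals and two-sided adjusted p-values from limma (a linear model with variances moderated across genes), Benjamini-Hochberg adjusted over 13249 tested genes. A gene is said to have risen or fallen only where the adjusted p was below 0.05.

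All 10 genes passed the filter of a mean of at least 1 FPKM, and they fell into separate patterns. Tnc, Thbs1 and Tgfbi stood higher in every resected heart than in every sham heart, with or without vagotomy. Cthrc1 was higher after resection alone and lower after resection with vagotomy than in sham. Sparc and Fn1 were higher in every vagotomy library than in every other, Postn was lower in every vagotomy library than in every sham library, and Fbln2, Vcan and Thbs2 overlapped between groups in all comparisons. For resection against sham 1 of the 10 genes rose and 0 fell, where 0.287% of all tested genes rose and 0.00755% fell. For vagotomy with resection against resection alone 0 rose and 1 fell, against backgrounds of 1.97% and 1.55%. Resection and vagotomy libraries with the same number in their titles deviated together weakly, though it is unknown whether the numbers pair them. With the replicate number as a block over all libraries, sham included, 1277 of the 13249 tested genes passed in that comparison, against 466 without it. Among the 10 genes the 1 call was the same (Cthrc1). For vagotomy with resection against sham 4 rose and 1 fell, against backgrounds of 5.81% and 4.26%. Without sham replicate 2, 0 of the 10 passed in that last comparison, and without vagotomy replicate 3 it was 2. At an unadjusted p below 0.05, 4, 3 and 7 of the 10 genes passed in these comparisons by limma, against 5.89%, 24.2% and 30.1% of all tested genes. The comparisons share libraries, so their counts are not independent of each other. The median log2 change of the 10 genes was 0.47, -0.18 and 0.59 in that order, while the median of all tested genes was -0.01, 0.02 and 0.03.

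**Figure D1:**
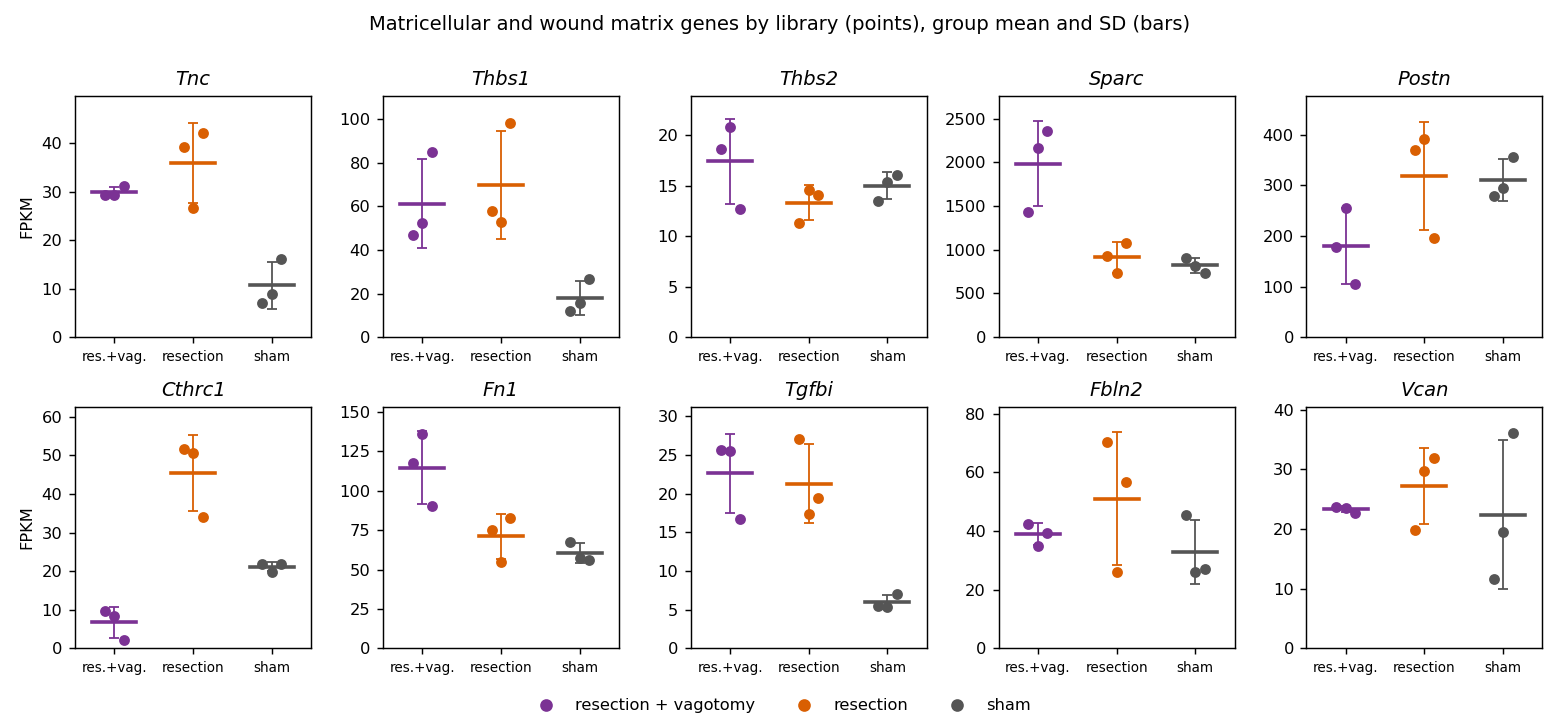
Expression in FPKM (y axis, starting at 0) of the 10 genes, with 1 point per library, a thick bar for the group mean and a thin bar for the SD (n = 3 libraries). Tnc, Thbs1 and Tgfbi are low in the sham libraries only, Cthrc1 is lowest in the vagotomy libraries at 2.11 to 9.64 FPKM, and Sparc is highest there at 1435 to 2360 FPKM.

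Tnc encodes tenascin-C, a hexameric glycoprotein that appears at wound edges and loosens cell adhesion (ENSMUSG00000028364, chromosome 4, 63959785 to 64047015, minus strand, GRCm38). It measured 29.2, 29.3 and 31.2 FPKM in the vagotomy libraries, 39.1, 26.5 and 42.1 FPKM in the resection libraries, and 7.05, 8.91 and 16.2 FPKM in the sham libraries. All 6 libraries of resected hearts lay above all 3 sham libraries, and the vagotomy libraries lay close together, inside the range of the resection libraries. The mean was 35.9 ± 8.27 FPKM after resection and 10.7 ± 4.83 FPKM after sham (SD, n = 3 each), a log2 change of 1.71 (95% interval 1.02 to 2.39). Its adjusted p was 0.0579 by limma, just short of the threshold. It passed in 6 of 20 alternatives (adjusted p 0.0289 to 0.299 over all of them), among them the fit without sham replicate 3, the highest sham library, in which the change was 2.02 (adjusted p = 0.0289). Against sham, Tnc rose in the vagotomy hearts, with a mean of 29.9 ± 1.10 FPKM and a log2 change of 1.48 (0.79 to 2.16, adjusted p = 0.021 by limma). That call was lost without sham replicate 2 (adjusted p = 0.101) and without vagotomy replicate 1, 2 or 3 (0.0507, 0.0542 and 0.0558). The deposited Tnc locus also holds the gene models 8030451A03Rik and Gm11216.

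Thbs1 encodes thrombospondin-1, a trimeric glycoprotein that is stored in platelets, binds the receptors CD36 and CD47 and activates latent TGF-beta (ENSMUSG00000040152, chromosome 2, 118111876 to 118127133, plus strand). It measured 46.7, 52.3 and 84.8 FPKM in the vagotomy libraries, 58.0, 52.9 and 98.2 FPKM in the resection libraries, and 11.9, 15.6 and 26.6 FPKM in the sham libraries. Replicate 3 was the highest library of each group, and the lowest library of a resected heart still lay above the highest sham library. The ratio of the means was 3.87 for resection over sham, and the log2 change of 1.91 (95% interval 1.10 to 2.73) had an adjusted p of 0.0674 by limma. It passed in 3 of 20 alternatives (adjusted p 0.0105 to 0.338 over all of them). In the vagotomy hearts Thbs1 rose against sham, by 1.74 (0.92 to 2.55, adjusted p = 0.0218). Without vagotomy replicate 3 this became 1.48 (adjusted p = 0.0637), and without sham replicate 2 it was 1.67 (adjusted p = 0.0995). The 6 detected platelet and megakaryocyte markers summed to 14.2 to 24.6 FPKM in the vagotomy libraries, 17.6 to 51.5 FPKM in the resection libraries and 5.98 to 9.02 FPKM in the sham libraries. The platelet chemokine genes Pf4 (23.2 ± 18.3 FPKM after resection, 4.05 ± 1.25 FPKM in sham) and Ppbp (4.56 ± 0.474 and 0.488 ± 0.0317 FPKM in the same groups) had adjusted p-values of 0.228 and 0.0668. The part of platelets in the Thbs1 values was not tested.

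Tgfbi encodes a secreted adhesion protein with fasciclin domains that is induced by TGF-beta and is made by fibroblasts and macrophages (ENSMUSG00000035493, chromosome 13, 56609523 to 56639562, plus strand). It measured 25.7, 25.5 and 16.7 FPKM in the vagotomy libraries, 27.1, 17.4 and 19.5 FPKM in the resection libraries, and 5.5, 5.38 and 7.04 FPKM in the sham libraries. The sham libraries were tightly grouped and lay far below all others. Tgfbi was the one gene of the 10 that rose after resection, by 1.66 on the log2 scale (95% interval 1.07 to 2.25, adjusted p = 0.0355 by limma). The log2 change of the vagotomy hearts against sham was of like size, 1.74 (1.16 to 2.33, adjusted p = 0.00837). The call for resection was fragile: it held in 10 of 20 alternatives (adjusted p 0.0204 to 0.212 over all of them) and was lost without any of sham replicates 1, 2 and 3 (0.171, 0.212 and 0.0832), resection replicates 1 and 3 (0.104 and 0.144) and vagotomy replicates 1 and 2 (0.0561 and 0.0793). The change itself stayed between 1.25 and 1.80. Against sham in the vagotomy hearts the call was lost without sham replicate 2 (adjusted p = 0.0514).

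Vagotomy was not seen to move these 3 genes further. Against resection alone the log2 difference was -0.23 for Tnc (95% interval -0.92 to 0.46), -0.18 for Thbs1 (-0.995 to 0.64) and 0.08 for Tgfbi (-0.51 to 0.67), and the adjusted p-values by limma were 0.69, 0.811 and 0.887. The intervals do not exclude changes of up to about 1 on the log2 scale. In the authors' deposited table, Tnc, Thbs1, Tgfbi and Cthrc1 were significant for resection over sham, each with q = 0.00161, where 4.18% of the genes tested there were significantly higher, and 0 of the 10 were significantly lower, against 1.93%.

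Cthrc1 encodes a secreted protein with a short collagen triple helix, first known from injured arteries, that is made by activated fibroblasts and limits collagen deposition (ENSMUSG00000054196, chromosome 15, 39076932 to 39087121, plus strand). It measured 9.64, 8.49 and 2.11 FPKM in the vagotomy libraries, 51.5, 50.6 and 34.0 FPKM in the resection libraries, and 21.8, 19.8 and 21.8 FPKM in the sham libraries. The 3 groups did not overlap in any pair, and the resection libraries lay above sham while the vagotomy libraries lay below it. Across the 9 libraries the highest value was 24.4 times the lowest, the widest span among the 10 genes. In the vagotomy hearts Cthrc1 fell to a mean of 6.75 ± 4.06 FPKM, against 45.4 ± 9.89 FPKM after resection alone (SD, n = 3 each), a log2 change of -2.75 (95% interval -3.68 to -1.82, adjusted p = 0.0166 by limma). This held in 19 of 21 alternatives (adjusted p 0.00802 to 0.0984) and was lost without resection replicate 2 (-2.66, adjusted p = 0.0839) and with the 6 compared libraries alone (adjusted p = 0.0984). With the replicate block and the GC and length trend of each library removed it was -2.70, and without vagotomy replicate 3 it was -2.18 (adjusted p = 0.012). In the authors' deposited table its q was 0.000995, where 8.56% of genes were significantly lower.

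Relative to sham, Cthrc1 fell in the vagotomy hearts by 1.70 on the log2 scale (95% interval -2.63 to -0.77, adjusted p = 0.034 by limma). The call was lost without sham replicates 1, 2 or 3 (adjusted p 0.0608, 0.115 and 0.126), without vagotomy replicate 2 (0.0517) and with the 6 compared libraries alone (0.0546). Without vagotomy replicate 3 the change was -1.14 (adjusted p = 0.0486). For resection against sham its log2 change was 1.04 (0.11 to 1.97), with all 3 resection libraries above sham and an adjusted p of 0.699. The sums of the 14 fibroblast markers overlapped between the groups, at 1494 to 2164 FPKM in the vagotomy libraries, 1602 to 1885 FPKM in the resection libraries and 1523 to 2283 FPKM in the sham libraries, and 0 of the 13 tested passed for vagotomy against resection by limma (4 at an unadjusted p below 0.05, median log2 change -0.05). Single markers, chosen after their values were seen, did not all overlap. The collagen gene Col3a1 had 286 ± 132 FPKM after vagotomy and 562 ± 65.9 FPKM after resection (adjusted p = 0.107), and the proteoglycan gene Lum had 22.2 ± 9.16 and 38.65 ± 9.19 FPKM (adjusted p = 0.171), both wholly below resection as Cthrc1 was. The collagen gene Col1a2 stood the other way, with overlap (421.7 ± 214 and 206.5 ± 66.6 FPKM, adjusted p = 0.178 by limma). Of the 13 tested markers, 6 were higher and 7 lower after vagotomy than after resection. Against sham the actin-severing protein gene Gsn rose in the vagotomy hearts (243 ± 94.9 FPKM after vagotomy, 89.7 ± 9.96 FPKM in sham, adjusted p = 0.0461). The part of fibroblasts in the Cthrc1 values was not tested. In whole tissue, fewer cells of a type and less RNA per cell cannot be told apart.

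Sparc encodes osteonectin, a small collagen-binding protein needed for collagen fibril assembly (ENSMUSG00000018593, chromosome 11, 55394500 to 55423183, minus strand). It measured 1435, 2162 and 2360 FPKM in the vagotomy libraries, 929, 732 and 1076 FPKM in the resection libraries, and 910, 817 and 735 FPKM in the sham libraries. The resection and sham libraries overlapped, and all 3 vagotomy libraries lay above both. Sparc rose in the vagotomy hearts against sham, by 1.25 (95% interval 0.52 to 1.97, adjusted p = 0.0405 by limma), and held this in 15 of 20 alternatives (adjusted p 0.0238 to 0.158). The call was lost without sham replicates 1, 2 or 3 (0.0595, 0.15 and 0.158) and without vagotomy replicates 2 or 3 (0.102 and 0.0963). Against resection alone the log2 change was 1.11 (0.38 to 1.83) with an adjusted p of 0.0831, and it passed in 1 of 21 alternatives, the replicate block with the GC and length trend removed (0.99, adjusted p = 0.0495, within 0.0495 to 0.247 over all). Without vagotomy replicate 3 it was 0.97 (adjusted p = 0.178). The authors' deposited table gave 1977 FPKM after vagotomy and 909 FPKM after resection for Sparc, with q = 0.0288, where 8.52% of genes were significantly higher.

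Fn1 encodes fibronectin, the adhesive glycoprotein on which much of the wound matrix is assembled (ENSMUSG00000026193, chromosome 1, 71585520 to 71653200, minus strand). It measured 118, 136 and 90.1 FPKM in the vagotomy libraries, 75.2, 55.1 and 82.8 FPKM in the resection libraries, and 67.8, 57.2 and 56.1 FPKM in the sham libraries. As with Sparc, the vagotomy libraries lay above the others, and resection and sham overlapped. The log2 change was 0.90 against sham (95% interval 0.31 to 1.49, adjusted p = 0.0571 by limma) and 0.68 against resection (0.09 to 1.27, adjusted p = 0.154). Without resection replicate 2 the comparison with sham passed (adjusted p = 0.0478, within 0.0456 to 0.2 over all alternatives). The deposited Fn1 locus also holds Apol7d.

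Postn encodes periostin, a fasciclin-domain protein related to that of Tgfbi and a marker of cushion mesenchyme and activated fibroblasts (ENSMUSG00000027750, chromosome 3, 54361109 to 54391037, plus strand). It measured 179, 256 and 106 FPKM in the vagotomy libraries, 369, 391 and 195 FPKM in the resection libraries, and 279, 294 and 357 FPKM in the sham libraries. All vagotomy libraries lay below all sham libraries, while resection replicate 3 reached down into the vagotomy range. No comparison passed: the log2 change was -0.86 for vagotomy against sham (95% interval -1.72 to 0.00, adjusted p = 0.165 by limma), -0.84 for vagotomy against resection (-1.70 to 0.02, adjusted p = 0.214) and -0.02 for resection against sham (-0.88 to 0.84, adjusted p = 1). The longest Postn transcript has a GC content of 36.3%, the lowest of the 10 genes. With the GC and length trend of each library removed, the 2 differences involving vagotomy shrank to -0.18 and -0.31, and without vagotomy replicate 3 they were -0.53 and -0.51. With the replicate block in the same fit, the difference from resection was also -0.31 (adjusted p = 0.505). The part of GC content in the deposited values was not otherwise tested.

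Fbln2 (fibulin-2, a calcium-binding glycoprotein of basement membranes and valve cushions), Vcan (versican, the large hyaluronan-binding proteoglycan) and Thbs2 (thrombospondin-2, an inhibitor of vessel growth) showed no call in any comparison. Fbln2 ranged from 34.8 to 42.3 FPKM in the vagotomy libraries, 26.2 to 70.2 FPKM in the resection libraries and 26.02 to 45.5 FPKM in the sham libraries. The resection group was the most spread, with a log2 change against sham of 0.56 (95% interval -0.26 to 1.38). Vcan ranged from 22.8 to 23.7 FPKM in the vagotomy libraries, 19.9 to 31.9 FPKM in the resection libraries and 11.6 to 36.2 FPKM in the sham libraries, where the log2 change of resection against sham was 0.38 (-0.43 to 1.19). The Vcan values are less certain, since its deposited locus holds 6 other genes, among them Xrcc4 and Tmem167. Thbs2 was the steadiest gene of the 10, with its highest value 1.84 times its lowest. It ranged from 12.7 to 20.8 FPKM in the vagotomy libraries, 11.3 to 14.5 FPKM in the resection libraries and 13.5 to 16.1 FPKM in the sham libraries, and the log2 change of resection against sham was -0.17 (-0.71 to 0.38).

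**Figure D2:**
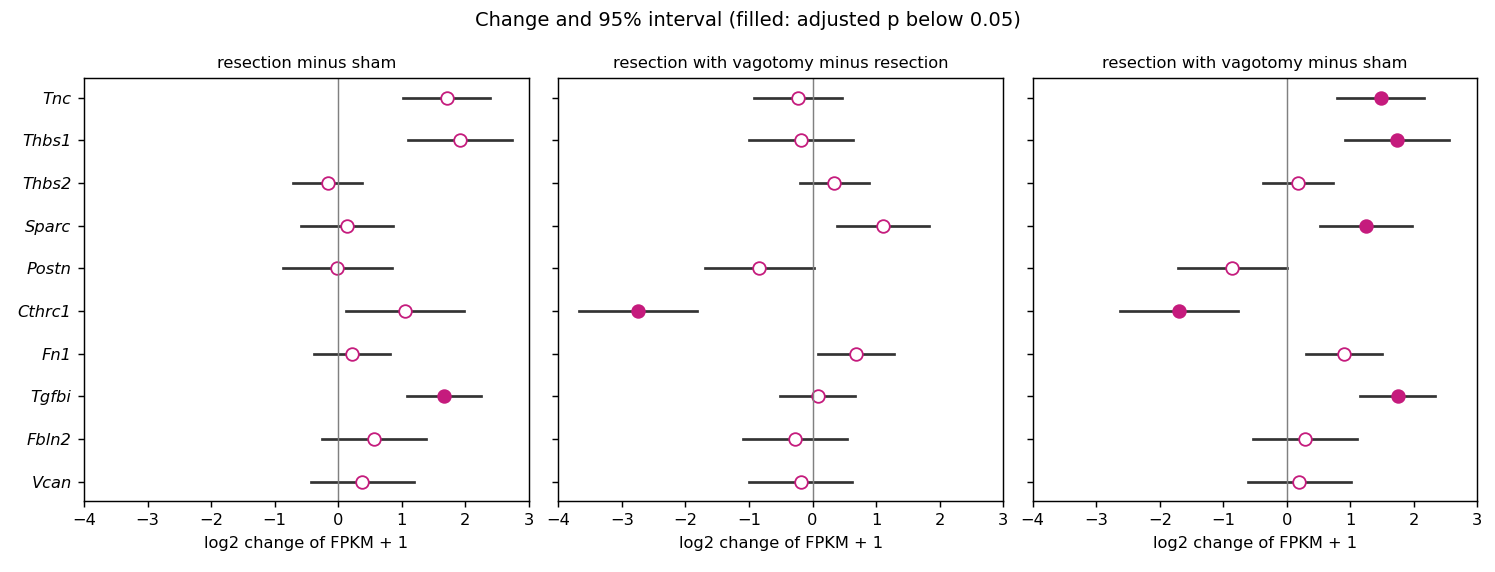
Log2 change of FPKM + 1 (x axis) with its 95% interval for each of the 10 genes (y axis) in the 3 comparisons, filled where the adjusted p by limma was below 0.05. Tgfbi is filled for resection minus sham, Cthrc1 for vagotomy minus resection at -2.75, and Tnc, Thbs1, Sparc, Tgfbi and Cthrc1 for vagotomy minus sham.

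Counting libraries instead of p-values, 4 of the 10 genes (Tnc, Thbs1, Cthrc1 and Tgfbi) lay wholly above sham after resection and 0 wholly below, where 6.36% and 4.45% of all tested genes did. Against resection, 2 genes (Sparc and Fn1) lay wholly above and 1 (Cthrc1) wholly below in the vagotomy libraries, with backgrounds of 14.0% and 12.2%. Against sham, 5 genes lay wholly above and 2 (Cthrc1 and Postn) wholly below in the vagotomy libraries, with backgrounds of 19.7% and 17.0%. With 3 libraries a side the smallest p of an exact permutation test is 0.1.

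The order of mean levels was not the same in the 3 groups. Sparc stood first in each, at percentile 99.8 of all genes in the vagotomy hearts, 99.6 in the resection hearts and 99.5 in sham. Postn and then Fn1 followed in each group, although in the vagotomy libraries the values of Postn and Fn1 overlapped. In sham, Tgfbi was the lowest of the 10 at percentile 42.3, and Tnc stood next above it at percentile 58.5. After resection Tgfbi stood at percentile 75.5 and Tnc at percentile 85.4, and Thbs2 was lowest. From Fn1 down to Tgfbi in the resection group, each gene overlapped its neighbour in the order, so the middle ranks are not resolved. In the vagotomy hearts Cthrc1 was lowest, at percentile 44.6 against percentile 88.5 after resection alone, and its libraries did not overlap those of Thbs2 next above it. The 10 genes together summed to 2481 ± 479 FPKM after vagotomy, 1566 ± 147 FPKM after resection and 1317 ± 50.5 FPKM in sham (SD, n = 3 each). Most of that sum was Sparc, which made up 74.5% to 85.3% in the vagotomy libraries, 52.4% to 65.2% in the resection libraries and 56.6% to 66.3% in the sham libraries.

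**Figure D3:**
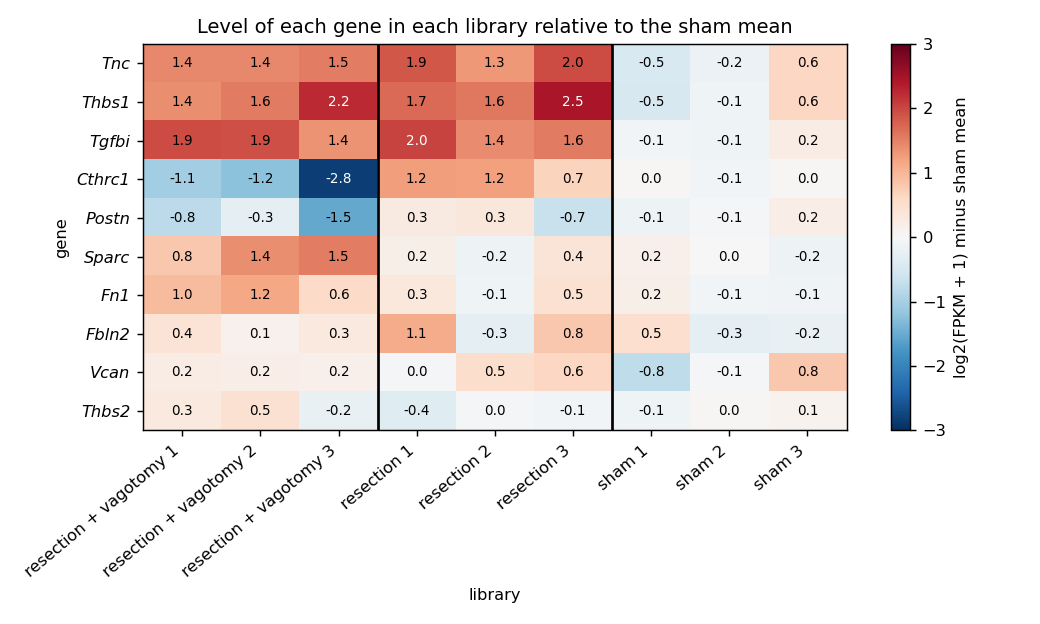
Log2(FPKM + 1) of each gene (rows) in each library (columns) less the sham mean, with red for higher and blue for lower. The rows of Tnc, Thbs1 and Tgfbi are red across all 6 libraries of resected hearts, and the Cthrc1 row changes from red in resection to blue in vagotomy.

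Ratios of levels within pairs of the 10 genes were compared as well. Thbs1 and Thbs2 encode closely related proteins, and their ratio within a library was 2.5, 2.51 and 6.70 in the vagotomy libraries and 5.11, 3.64 and 6.99 in the resection libraries, against 0.88, 1.01 and 1.65 in the sham libraries. On the log2(FPKM + 1) scale the ratio differed by 2.08 between resection and sham, without overlap, and the exact two-sided permutation p was 0.1, the smallest this design allows. The paralogs Tgfbi and Postn likewise had ratios of 0.144, 0.0998 and 0.158 in the vagotomy libraries and 0.0734, 0.0444 and 0.1 in the resection libraries, against 0.0197, 0.0183 and 0.0197 in the sham libraries (a log2 difference of 1.68 between resection and sham, exact permutation p = 0.1). The ratio of Sparc to Postn was 8.03, 8.45 and 22.3 in the vagotomy libraries and 2.52, 1.87 and 5.52 in the resection libraries, a log2 difference of 1.95 with p = 0.1 by the same exact test. The ratio of Cthrc1 to Postn differed by -1.90 between vagotomy and resection (exact permutation p = 0.1). In all, 12 such ratios were compared, 4 pairs in 3 comparisons, and the 9 with an exact permutation p of 0.1 had an adjusted p of 0.133. The other 3 overlapped between groups, with exact permutation p-values of 0.9 for Sparc to Postn in resection against sham, and 0.3 and 0.2 for Thbs1 to Thbs2 and Tgfbi to Postn in vagotomy against resection.

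Because Tnc and Tgfbi rose in the vagotomy hearts against sham and Postn had no call, the sequences before their start sites are shown (RefSeq, GRCm38.p6), ending before the first base of any annotated exon. They lie at chr4:64047016-64047265 on the minus strand for Tnc, at chr13:56609336-56609522 on the plus strand for Tgfbi and at chr3:54360857-54361106 on the plus strand for Postn. Capitals mark matches to any of 8 motifs searched on both strands.
Tnc: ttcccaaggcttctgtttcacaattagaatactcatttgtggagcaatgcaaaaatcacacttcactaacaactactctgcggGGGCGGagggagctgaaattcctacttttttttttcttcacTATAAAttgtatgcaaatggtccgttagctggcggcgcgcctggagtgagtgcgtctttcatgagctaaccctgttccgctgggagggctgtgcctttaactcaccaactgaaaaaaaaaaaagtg
Tgfbi: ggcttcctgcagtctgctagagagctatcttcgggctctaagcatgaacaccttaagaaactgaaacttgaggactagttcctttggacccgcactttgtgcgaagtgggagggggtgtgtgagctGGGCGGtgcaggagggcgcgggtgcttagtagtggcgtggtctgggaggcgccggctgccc
Postn: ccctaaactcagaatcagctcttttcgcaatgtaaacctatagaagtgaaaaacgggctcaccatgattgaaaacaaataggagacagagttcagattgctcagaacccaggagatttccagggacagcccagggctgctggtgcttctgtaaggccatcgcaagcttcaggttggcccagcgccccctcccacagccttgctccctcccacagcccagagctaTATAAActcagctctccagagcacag

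A TATA box (TATAAA) lay 26 bases before the Postn start site and 126 bases before that of Tnc, and a GC box (GGGCGG) lay 167 bases before the start site of Tnc and 124 bases before that of Tgfbi. Promoter sequences matched 7 of the 10 genes in 9 windows of 250 bases. The counts below use all 250 bases, whereas the sequences shown stop before the first exon base. That stop would leave 0 bases of the Fbln2 window and 5 of the Sparc window. The GC box of Fbln2 and the SMAD matches of Sparc and Tnc lie past it. Of these 9 windows 4 held a TATA box, against 12.4% of all 32851 windows, 5 held a GC box against 32.7%, and 3 held the SMAD motif CAGACA against 17.1%. The windows of the 2 Tnc start sites overlap and share 1 TATA box and 1 GC box, so that 3 of the 7 genes had a TATA box, 4 a GC box and 3 the SMAD motif. The AP-1 motif TGANTCA (6.75% of all windows), the CRE motif TGACGTCA (1.55%), the TEAD motif GGAATG (12.6%), the NF-kB motif GGGANTTCC (1.43%) and the CArG box (1.47%) matched in 0 of the 9. Within a window no matches overlapped. A match says only that these letters are somewhere in the window, and a missing match that they are not.

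Other genes of the same matrix were taken from lists written with earlier results of these data known. Counts in these lists and in the marker lists below are to be read against all tested genes. Of those, 5.89% had an unadjusted p below 0.05 by limma for resection against sham and 24.2% for vagotomy against resection. For vagotomy against sham it was 30.1%, and there 5.81% of all tested genes rose and 4.26% fell. Calls with the replicate block are likewise to be read against the count over all genes with the block, given above. Of 23 tested further matricellular genes 1 rose after resection against sham (6 at an unadjusted p below 0.05, median log2 change -0.07). That gene was Spp1, which encodes osteopontin (255 ± 71.5 FPKM after resection, 6.26 ± 4.78 FPKM in sham, log2 change 5.33, adjusted p = 0.00326 by limma). The CCN family split by sign without passing: Ctgf had 108 ± 66.7 FPKM after resection and 35.9 ± 8.65 FPKM in sham (adjusted p = 0.568), Wisp1 had 14.5 ± 3.87 and 8.24 ± 1.5 FPKM (adjusted p = 0.615), and Nov had 6.19 ± 2.1 and 23.4 ± 8.38 FPKM (adjusted p = 0.0674). After vagotomy 0 of the 23 passed against resection by limma (4 at an unadjusted p below 0.05), and 1 fell with the replicate block, Wisp1. Against sham 1 rose (Spp1) and 4 fell in the vagotomy hearts, Nov and, chosen after their values were seen, the elastic fibre genes Efemp1 and Mfap5 and the proteoglycan gene Ogn. Wisp1 stood at 6.66 ± 1.76 FPKM after vagotomy and 14.5 ± 3.87 FPKM after resection, without overlap and with an adjusted p of 0.0673 (0.0219 with the replicate block).

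Receptors of these proteins included 1 of 27 tested genes that rose after resection, Itgam, the alpha chain of the leukocyte integrin Mac-1 (16.4 ± 5.45 FPKM after resection, 1.92 ± 1.76 FPKM in sham, log2 change 2.68, adjusted p = 0.0382 by limma). Its partner chain Itgb2 (8.95 ± 4.75 FPKM after resection, 0.884 ± 0.503 FPKM in sham) had an adjusted p of 0.074, and the hyaluronan and osteopontin receptor Cd44 (26.8 ± 11.95 and 7.29 ± 2.09 FPKM) had 0.0869. The proteoglycan receptor Sdc4 stood at 23.9 ± 14.0 and 9.16 ± 2.75 FPKM (adjusted p = 0.779). Of the 27 genes 23 had a positive change, with a median of 0.37. After vagotomy 0 passed against resection by limma (5 at an unadjusted p below 0.05). With the replicate block 2 rose, the integrin gene Itga3 and the endocytic receptor gene Lrp1, both chosen after their values were seen (adjusted p = 0.0372 and 0.0496). In the vagotomy hearts 6 rose against sham, among them Itgam, Itgb2 and Cd44, where 5.81% of all tested genes rose.

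Among 15 tested genes of hyaluronan and fibrin matrix 1 rose after resection. It was F13a1, which encodes the chain of factor XIII that crosslinks fibrin and fibronectin (23.1 ± 1.95 FPKM after resection, 6.84 ± 1.92 FPKM in sham, log2 change 1.65, adjusted p = 0.0382 by limma). In the vagotomy hearts it stood at 11.96 ± 2.75 FPKM, below all resection libraries (adjusted p = 0.0792, and 0.0442 with the replicate block). The versican-cleaving protease gene Adamts1, chosen after its values were seen, was the 1 gene of this list that rose after vagotomy, with 22.2 ± 4.87 FPKM, against 9.71 ± 1.53 FPKM after resection (log2 change 1.10, adjusted p = 0.0378). Of 25 genes of integrin adhesion and microfibril assembly 0 passed after resection and 0 after vagotomy against resection by limma (2 and 8 at an unadjusted p below 0.05), with medians of 0.12 and 0.39. With the replicate block 3 rose after vagotomy against resection, the microfibril genes Fbn2, Mfap2 and Ltbp4, chosen after their values were seen (adjusted p = 0.0391, 0.0414 and 0.0325). Against sham 3 rose in the vagotomy hearts. These were Fermt3, an integrin activator of blood cells (6.60 ± 1.77 FPKM after vagotomy, 0.951 ± 0.456 FPKM in sham, adjusted p = 0.0129), the latent TGF-beta binding protein gene Ltbp2 (7.45 ± 4.64 and 0.76 ± 0.312 FPKM, adjusted p = 0.0332) and, chosen after its values were seen, Ltbp4.

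**Figure D4:**
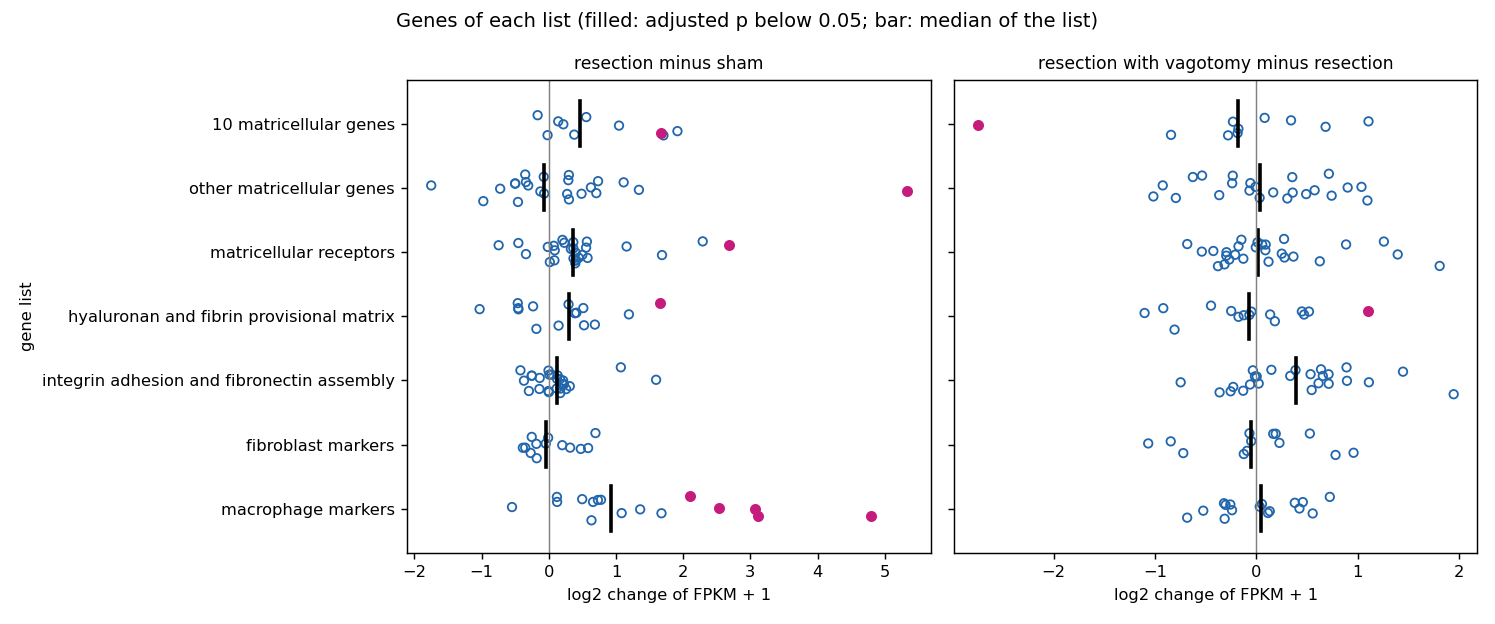
Log2 change of FPKM + 1 (x axis) of each tested gene in the 10-gene set and in 6 further lists (y axis), with a bar at the median and filled points where the adjusted p by limma was below 0.05. For resection minus sham the bar of the macrophage markers lies at 0.93 and that of the fibroblast markers at -0.05, and for vagotomy minus resection the lone filled point of the 10 genes is Cthrc1.

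Summed macrophage and neutrophil markers stood higher in every resected heart than in every sham heart, with or without vagotomy. The sums of the other cell types below did not. The 17 detected macrophage markers summed to 319 to 331 FPKM in the vagotomy libraries, 233 to 429 FPKM in the resection libraries and 65.9 to 91.9 FPKM in the sham libraries. Of 16 tested, 5 rose after resection, among them the lysozyme gene Lyz2 (159 ± 46.9 FPKM after resection, 27.2 ± 11.6 FPKM in sham, adjusted p = 0.0165 by limma) and Mpeg1, a pore-forming protein gene of macrophages (15.4 ± 1.91 and 2.92 ± 1.25 FPKM, adjusted p = 0.00744). The 11 detected neutrophil markers summed to 134 to 369 FPKM in the vagotomy libraries, 227 to 328 FPKM in the resection libraries and 24.02 to 48.4 FPKM in the sham libraries, where 5 of the 11 were below 1 FPKM in all 3. Of the 9 tested, 1 rose after resection against sham, S100a8 (adjusted p = 0.0112 by limma), and 8 had an unadjusted p below 0.05. The neutrophil markers went both ways in the vagotomy hearts against resection, with 5 of the 9 tested higher and 4 lower. The alarmin gene S100a8 fell (42.8 ± 15.3 FPKM after vagotomy, 164.9 ± 45.5 FPKM after resection, adjusted p = 0.0344 by limma). S100a9 stood higher without passing (140 ± 82.6 and 45.4 ± 19.5 FPKM, adjusted p = 0.119). With the replicate block Retnlg, chosen after its values were seen, rose (adjusted p = 0.0462). Epicardial markers, 10 genes, summed to 63.4 to 87.9 FPKM in the vagotomy libraries, 90.0 to 137 FPKM in the resection libraries and 75.4 to 78.7 FPKM in sham, and 0 of the 10 passed for vagotomy against resection by limma (2 at an unadjusted p below 0.05, median log2 change -0.49), the comparison in which Cthrc1 fell. With the replicate block 1 of them fell there, the epicardial transcription factor gene Wt1 (10.1 ± 3.07 FPKM after vagotomy, 20.9 ± 2.81 FPKM after resection, adjusted p = 0.0354 with the block). Myofibroblast and smooth muscle markers, 14 genes, summed to 812 to 1020 FPKM in the vagotomy libraries, 689 to 751 FPKM in the resection libraries and 811 to 995 FPKM in sham. In the vagotomy hearts against sham 7 of them were higher and 7 lower (median log2 change 0.22). The transgelin gene Tagln rose, with 39.7 ± 7.93 and 9.33 ± 1.5 FPKM (adjusted p = 0.00767), while Myl9, a myosin light chain gene, had 131 ± 25.9 and 218 ± 67.0 FPKM, wholly below sham (adjusted p = 0.156). Against resection 0 of the 14 passed (2 at an unadjusted p below 0.05), and 2 did with the replicate block, Tagln higher and Kcnj8, chosen after its values were seen, lower (adjusted p = 0.0442 and 0.0366). The 13 endothelial markers summed to 511 to 632 FPKM in the vagotomy libraries, 467 to 679 FPKM in the resection libraries and 402 to 611 FPKM in the sham libraries. The endothelial sialomucin gene Emcn, chosen after its values were seen, fell in the same comparisons as Cthrc1, with 8.97 ± 1.52 FPKM after vagotomy, against 32.3 ± 8.53 FPKM after resection (adjusted p = 0.0169) and 28.9 ± 5.34 FPKM in sham (adjusted p = 0.0119). The endothelial marker Plvap rose against sham (17.3 ± 2.09 FPKM after vagotomy, 5.36 ± 1.5 FPKM in sham, adjusted p = 0.03785 by limma). After vagotomy 8 of the 13 were higher and 5 lower than in sham. Against resection 6 were higher and 7 lower. Of the 14 cardiomyocyte markers 12 were higher and 2 lower after vagotomy than after resection (median log2 change 0.78, 5 at an unadjusted p below 0.05). By limma 3 rose and 1 fell, against 1.97% and 1.55% of all tested genes. The lower one was Myh6, listed at 0 there as too abundant to quantify. The sarcomere genes Myl3 and, chosen after their values were seen, Actn2 and Tnnc1 rose (adjusted p = 0.0166, 0.0442 and 0.0294). Tnnc1 was widely spread after vagotomy, at 6707 ± 5074 FPKM. Myl3 had 7663 ± 2616 FPKM after vagotomy and 898 ± 507 FPKM after resection. The 7 detected erythroid markers summed to 362 to 655 FPKM in the vagotomy libraries, 794 to 4352 FPKM in the resection libraries and 439 to 1354 FPKM in the sham libraries. The part of any of these cell types in the values of the 10 genes was not tested.

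Likeness of pattern was measured as the root mean square difference between 2 genes' log2(FPKM + 1) values over the 9 libraries, each centred on its own mean. Among the 10 genes the closest pairs were Tnc and Thbs1 (0.27), Sparc and Fn1 (0.32) and Tnc and Tgfbi (0.33), and the farthest was Sparc and Cthrc1 (1.77). Among all other tested genes, those nearest to Tnc were Emb (0.20) and Lcp1 (0.23). Thbs1 was nearest to Clec4d (0.23) and Fpr1 (0.25), and Tgfbi to Pirb (0.20) and Cd48 (0.24). Sparc was nearest to Slc39a11 (0.11) and Ift46 (0.16), Fn1 to Nedd8 (0.12) and Ndrg2 (0.13), and Postn to Psma5 (0.13) and Cd63-ps (0.15). The measure grows with a gene's own spread over the libraries, which was 1.23 for Cthrc1, against 0.24 for Thbs2 and 0.43 for Vcan. The nearest genes to Cthrc1 were mt-Rnr1 at 0.40 and Rpf1 at 0.44. For Fbln2 they were Marveld1 and Tmem120a, for Vcan Ero1l and Abracl, and for Thbs2 Kif21a and Mtmr9, at 0.08 to 0.22.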

How the data were processed

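Expression was measured in 9 libraries, 3 per group. Per the submitters' processing notes, TopHat2 2.0.9, Cufflinks 2.1.1 and Cuffdiff 2.1.1 were used with GRCm38. The authors deposited a matrix of FPKM with a pseudocount of 1 added, which was subtracted here, and 2 Cuffdiff tables with group FPKM, p-values and q-values. Depth is unknown, and no count test was run. The 13249 genes averaging 1 FPKM or more were log-transformed (log2 of FPKM + 1) and fitted by limma 3.58.1 (R 4.3.3), with 1 mean per group over all 9 libraries, a mean-variance trend, two-sided tests and Benjamini-Hochberg adjustment over all tested genes at 0.05. The procedure was tested on simulated data. Groups came from the labels. Replicate numbers are those of the sample titles. In the authors' column names, the resection and vagotomy libraries numbered 3 carry different numbers. Deviations from group means correlated at 0.117 to 0.199 in all 3 same-numbered pairs of resection and vagotomy libraries. In the 6 other pairs they correlated at -0.131 to -0.0212. Deviations cancel within a group, so positive values in the same-numbered pairs push the others negative. On these correlations the block is given beside the main fit for these 2 groups, as if the numbers paired them. It was fitted over all 9 libraries, so the sham libraries also helped to set its terms. Whether the numbers pair any libraries is uncertain, since the labels do not say what a number marks. The members and gene lists were chosen with earlier results of these data known. The text names all 10 members, genes from the up to 4 of each list with the smallest p for resection against sham, and the 2 genes nearest in pattern to each member. Further list genes are marked as chosen after their values were seen. Gene positions came from GENCODE M21 (GRCm38). Alternatives were other pseudocounts (0.1 and 5), filters (none, or a mean of at least 5 FPKM), scalings, moderation and library sets, a replicate block, leaving out each library, and, chosen after seeing the data, removal of the GC and length trend (alone and, for vagotomy against resection, with the block), for which 13118 tested genes had a value.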

Additional observations from a re-analysis of the deposited data

How the results depend on the processing

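Of 610 results for single members under an alternative, 556 kept direction and side of the threshold, 29 lost a call, 13 gained one and 12 changed sign, and the 12 were small changes that had no call. Most of the 610 had no call in the main fit to lose. Among the calls, Tgfbi for resection against sham was lost in 10 of 20 alternatives and Cthrc1 for vagotomy against resection in 2 of 21. Each call for vagotomy against sham was lost in 1 to 5 of 20. The count of members called for resection against sham was 1. It was 2 with a pseudocount of 0.1 or a mean of at least 5 FPKM, and 3 with robust moderation, the replicate block or removal of the GC and length trend. No member passed (0) with a pseudocount of 5, upper-quartile scaling or the 6 compared libraries alone. Leaving out 1 library gave 0 to 1. For vagotomy against resection the number called was 0 when fitted on its own 6 libraries, 2 with the replicate block and the GC and length trend removed together, and 0 to 1 without single libraries, and for vagotomy against sham it was 0 to 6 without single libraries (0 without sham replicate 2). Over all genes, calls for resection against sham were 39. They were 66 and 23 with pseudocounts of 0.1 and 5, 13 with the 6 compared libraries, 74 with robust moderation, 84 with the GC and length trend removed, and 11 to 59 without single libraries. For vagotomy against resection, 466 calls became 29 with the 6 compared libraries, 1277 with the replicate block, 1360 with the GC and length trend removed, 1556 with both, and 42 to 591 without single libraries. For vagotomy against sham, 1334 became 2413 with the replicate block, 2377 with that trend removed, and 100 to 1701 without single libraries. With the trend removed the sign changed for Postn in resection against sham (0.13), Tgfbi in vagotomy against resection (-0.021, with or without the block) and Fbln2 in vagotomy against sham (-0.0423). Without single libraries it changed for Postn in resection against sham (range -0.20 to 0.30), for Thbs1 (-0.433 to 0.0943), Tgfbi (-0.0461 to 0.278) and Fbln2 (-0.69 to 0.0026) in vagotomy against resection and for Vcan in vagotomy against sham (-0.18 to 0.60). The causes were not tested. Same-numbered libraries of resection and sham (r 0.0129 to 0.498) and of vagotomy and sham (-0.0193 to 0.186) did not all deviate together, and sham replicate 3 correlated better with resection replicate 2 (0.335) than with resection replicate 3 (0.0129), so these 2 comparisons were not taken as paired. With the replicate block Tnc (adjusted p = 0.0421) and Thbs1 (0.0105) passed for resection against sham and Fn1 (0.0456) for vagotomy against sham. For vagotomy against resection the block changed the call of no member. Depth is unknown, so no limit of detection can be given.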
